A study of Mus musculus with 72 samples.

Results

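The subject is a set of 8 genes that encode components and regulators of the complement system: C3, C4b, C2, Cfb, Cfi, Serping1, Cd55 and Cd59a. They were found by their symbols in the array's probe annotation, and each gene was read from its brightest probe. Of the 8 genes, 7 had a named probe, 1 probe each, among 16593 genes with a named probe in all. C3, the protein on which the complement pathways converge, had no probe named in the annotation and was not analysed here. Total RNA from the cortex and the medulla of kidneys of Balb/c mice was measured on MouseRef-8 arrays of Illumina. The exposed animals received 177Lu, a radionuclide that emits beta particles, to an absorbed dose of 0.3, 3 or 10 Gy, and were sampled at 1.5, 3 or 4.5 months. The control groups carry the same nuclide tag in the labels, with a dash in place of a dose, and neither the age of the animals nor the amount given is in the labels used here. The 24 groups (cortex or medulla, control or 1 of 3 doses, 1 of 3 times) held 3 arrays each, 72 in all.

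Complement is a cascade of plasma and cell surface proteins that marks targets for removal and can perforate membranes. The classical and lectin pathways cleave C4 and C2 to form a convertase, an enzyme that activates C3, whereas the alternative pathway builds its own convertase from C3 and factor B. Regulators hold the cascade back: C1 inhibitor at the start, factor I and CD55 at the convertases, and CD59 at the terminal pore. Plasma complement comes mainly from the liver, but kidney tubule cells make several components themselves, and the kidney is an organ in which complement injury is well known.

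The annotation places C4b, Cfb and C2 on chromosome 17, in the class III region of the major histocompatibility complex, with Cfb and C2 next to each other. Cfi lies on chromosome 3, Serping1 and Cd59a on chromosome 2, and Cd55 on chromosome 1. The promoter windows of the membrane regulators Cd55 and Cd59a are shown because both genes had higher signals in the medulla than in the cortex, as described below. They come from RefSeq on GRCm38.p6, which held such a window for 3 of the 8 genes (Cd55, Cd59a and C3), and run from 250 bases before to 50 bases after a transcript start, 5′ to 3′ on the gene's strand, with motif matches in capitals. The Cd55 window is chr1:130462695-130462994 on the minus strand and the Cd59a window is chr2:104095551-104095850 on the plus strand.
Cd55: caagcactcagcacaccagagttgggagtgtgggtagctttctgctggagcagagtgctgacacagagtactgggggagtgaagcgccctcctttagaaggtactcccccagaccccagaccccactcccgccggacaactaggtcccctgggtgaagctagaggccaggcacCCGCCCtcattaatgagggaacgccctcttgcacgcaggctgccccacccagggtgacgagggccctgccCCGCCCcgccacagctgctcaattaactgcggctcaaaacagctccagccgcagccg
Cd59a: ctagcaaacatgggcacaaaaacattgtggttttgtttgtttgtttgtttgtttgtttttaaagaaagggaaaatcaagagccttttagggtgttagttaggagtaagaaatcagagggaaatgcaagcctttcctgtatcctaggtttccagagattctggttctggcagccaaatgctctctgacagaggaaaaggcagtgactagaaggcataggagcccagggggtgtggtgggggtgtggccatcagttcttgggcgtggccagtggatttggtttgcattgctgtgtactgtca
The windows were searched on both strands for a TATA box, with the letters TATAAA, for a CCAAT box, for a GC box, with the letters GGGCGG, and for the GAS motif of interferon-gamma signalling, with the letters TTCNNNGAA. The Cd55 window, with 63.3% G and C, held 2 GC boxes on the opposite strand (shown as CCGCCC), which do not overlap, and a GC box occurs in 35.7% of all 32851 windows. The Cd59a window, with 45.7% G and C, held none. The TATA box, the CCAAT box and the GAS motif, found in 13.6%, 37.4% and 8.3% of all windows, were in neither.

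The deposited values were quantile-normalized intensities, and all values below are their log2. 1 cortex array, replicate 3 of the controls at 1.5 months, stood apart: its average correlation with the rest of the cortex, taken across genes, was 0.64, and no other cortex array was below 0.963. It was left out by the rule that defined the gene set, so 35 cortex and 36 medulla arrays were used and the cortex controls at 1.5 months had 2 arrays. Relative to those 2 arrays it read 3.56 log2 units higher for Cd55, 1.47 for C4b and 1.27 for Serping1, and -2.24 for Cfi. Array medians lay between 143.4 and 143.9, and precision is set by the number of arrays and their spread within groups. Nothing in the labels ties each sample to an animal of its own, so the p-values reflect spread between samples, which may be technical. All 7 genes passed the intensity floor of 150 in both tissues. Cd55 was the dimmest, with a mean intensity of 202 and single arrays down to 145, under the floor, so its fold changes may be compressed by background. The other 6 had mean intensities of 579 (Cfi), 645 (C4b), 1940 (Serping1), 2220 (Cfb), 2610 (C2) and 3540 (Cd59a) and these are probe signals and do not rank the genes by expression. C4b has a near-identical copy, C4a, whose own probe did not pass the floor. Whether the C4b probe also reads C4a transcripts was not tested.

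**Figure D1:**
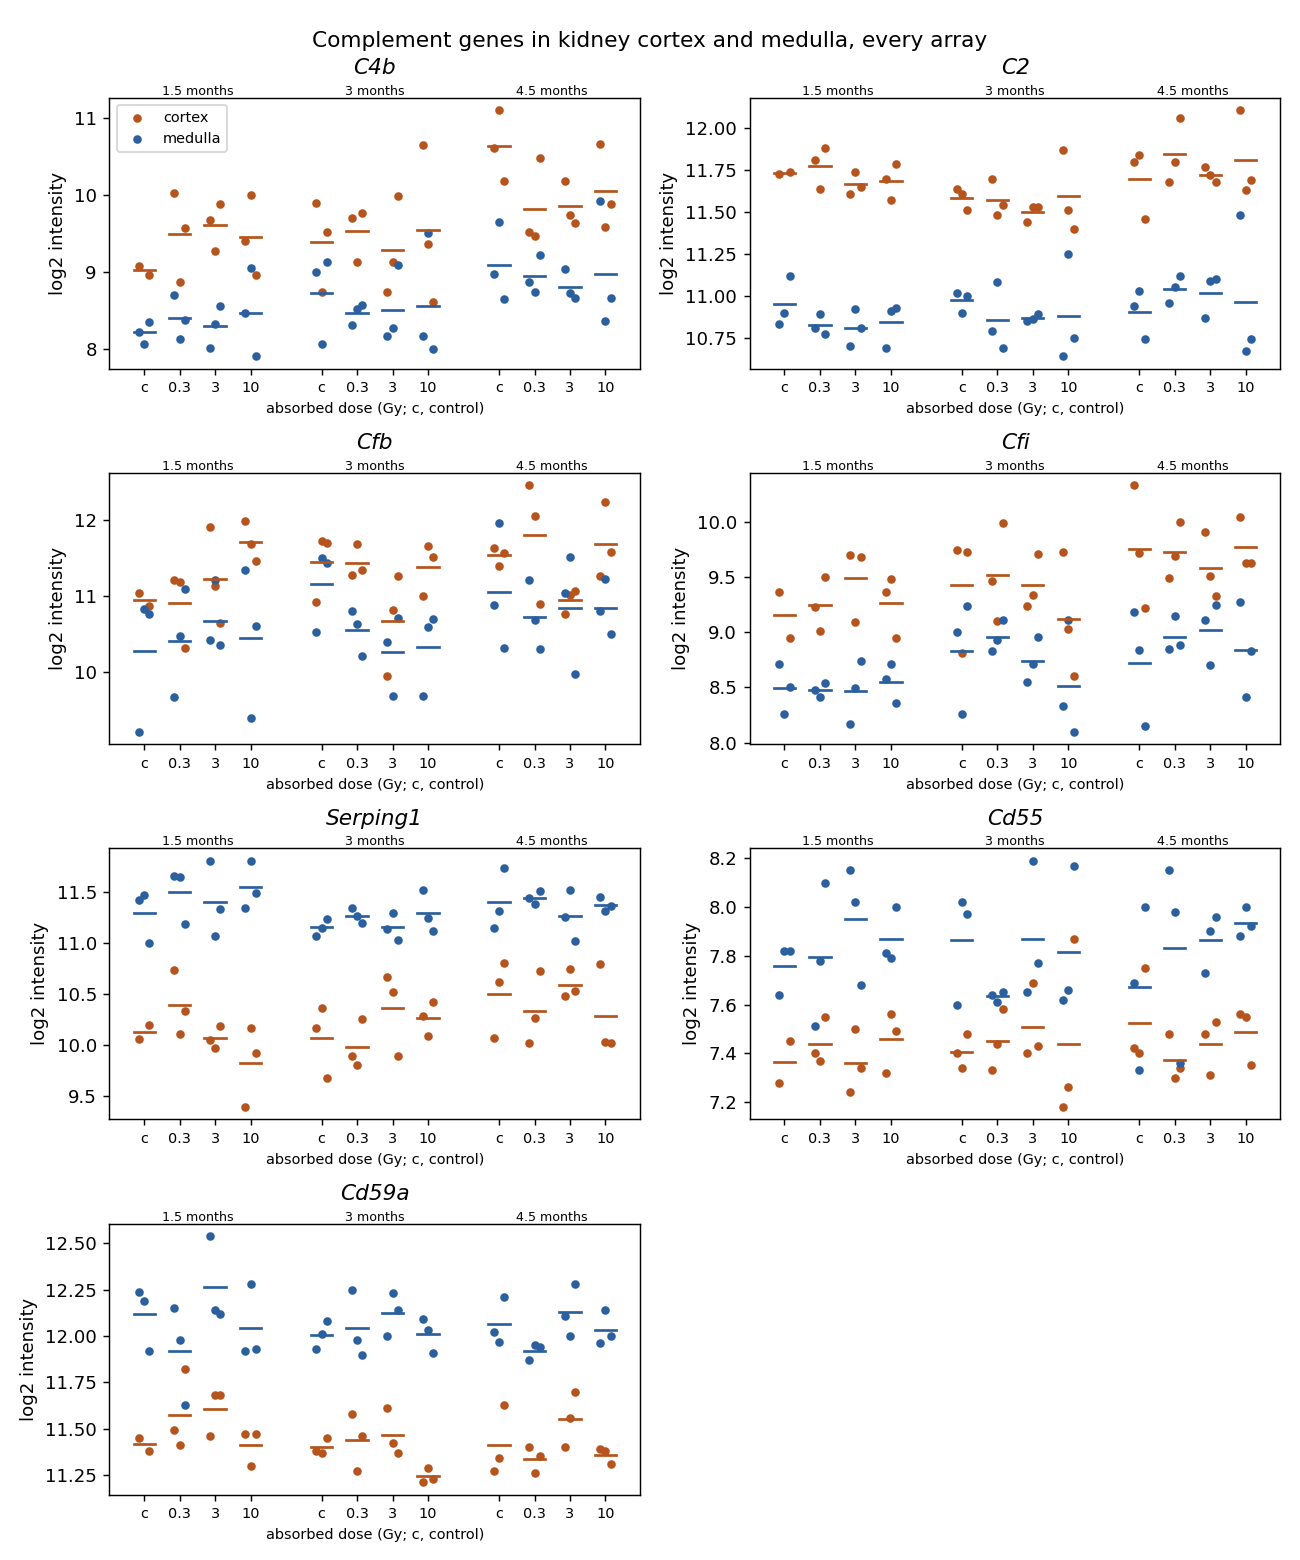
Log2 intensity of the 7 measured complement genes on each of the 71 arrays (points), by time in months, dose in Gy and tissue (colour), with group means as lines. Serping1 shows medulla above cortex on all arrays, whereas the points of C4b and Cfb spread widely within most groups.

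The first comparison asked how the 2 tissues differ without an effect of dose, in the controls. The classical pathway genes C2 and C4b and the regulator Cfi had higher signals in the cortex, and the regulators Serping1, Cd59a and Cd55 had higher signals in the medulla. In limma, 6 of the 7 genes passed an adjusted p of 0.05, 3 higher and 3 lower in the medulla. Over all 9024 genes tested, 37.4% passed, with 18.7% higher and 18.7% lower. Segment markers were set beside the tissue labels: medulla exceeded cortex for the collecting duct genes Fxyd4 and Aqp2 by 2.09 and 1.27 log2 units and for Slc12a1 of the thick ascending limb by 1.23, whereas Slc5a2 of the early proximal tubule and Wt1 of podocytes read -1.32 and -1.02. Slc34a1, the proximal tubule phosphate transporter, was not lower in the medulla (0.18 ± 0.07; limma, adjusted p = 0.0438). Of the 9 proximal tubule markers 4 were lower and 2 higher in the medulla, with a median of 0.06, and over all arrays their summed intensity had a median of 87347 in the medulla and 76864 in the cortex, so this list did not mark the cortex. Of the thick ascending limb markers 3 of 6 were higher and 0 lower, of the collecting duct markers 3 of 5 higher and 2 lower, and both podocyte markers were lower. In tissue samples of this kind, fewer cells of a type and less RNA per cell cannot be told apart.

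Among the components, C2, the protease that joins C4b in the classical convertase, read between 11.46 and 11.84 in the 8 control cortex arrays (median 11.68) and between 10.74 and 11.12 in the 9 control medulla arrays (median 10.94). The ranges did not overlap, and how many of all genes had separate ranges in the controls was not counted. The difference, medulla minus cortex, was -0.73 ± 0.08 log2 units (± SE, limma, adjusted p = 3.89e-10), or 0.602 times the cortex signal. C4b, the substrate that anchors this convertase, ranged from 8.74 to 11.10 in the cortex controls (median 9.70) and from 8.06 to 9.64 in the medulla controls (median 8.64). Its groups overlapped, and the medulla signal was 0.499 times that of the cortex (95% interval 0.355 to 0.702; limma, adjusted p = 0.000796). Cfb, the protease of the alternative pathway convertase, ranged from 10.87 to 11.73 in the cortex controls (median 11.48) and from 9.22 to 11.97 in the medulla controls (median 10.83). The medulla range enclosed that of the cortex, and the difference of -0.48 ± 0.27 did not pass (adjusted p = 0.156; 95% interval -1.02 to 0.05).

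The regulators went in both directions. Serping1, which encodes the C1 inhibitor, a serpin that blocks the proteases of the C1 complex, read between 9.67 and 10.80 in the cortex controls (median 10.19) and between 11.00 and 11.74 in the medulla controls (median 11.24). No medulla array was as low as the highest cortex array, and the medulla signal was 2.08-fold that of the cortex, a difference of 1.05 ± 0.13 (limma, adjusted p = 1.47e-09). Cd59a, a lipid-anchored surface protein that blocks the terminal pore, ranged from 11.27 to 11.63 in the cortex controls and from 11.92 to 12.24 in the medulla controls. These ranges were separate too, with a difference of 0.66 ± 0.07 (limma, adjusted p = 6.6e-11). As for C2, separate ranges in the controls were not counted over all genes. Cd55, or decay-accelerating factor, a surface protein that takes convertases apart, ranged from 7.28 to 7.75 in the cortex and from 7.33 to 8.02 in the medulla. The ranges overlapped, and the difference was 0.34 ± 0.10 (adjusted p = 0.00538). This call depends on the array left out: with it put back, Cd55 read -0.06 (adjusted p = 0.867). Cfi, the plasma protease that cuts C3b and C4b with the help of cofactors, was the regulator with the opposite direction. It ranged from 8.81 to 10.33 in the cortex and from 8.15 to 9.24 in the medulla, a difference of -0.77 ± 0.17 (limma, adjusted p = 0.000221). With the array put back Cfi read -0.52 and still passed, and its largest adjusted p over all alternative settings was 0.049 (limma). Macrophage markers moved with this comparison: 5 of 7 tested were higher in the medulla (median 0.65), as were 4 of 7 endothelial markers (median 0.50), and their part in the differences was not tested.

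The same order of tissues held across the study. Averaged over the 12 conditions of dose and time, all 7 measured genes passed in limma, where 64.9% of all genes did, 30.7% higher and 34.2% lower in the medulla. These arrays include the controls above, so the averages are not separate evidence. Serping1 differed by 1.11 ± 0.06, Cd59a by 0.62 ± 0.03 and Cd55 by 0.38 ± 0.05, whereas C2 differed by -0.77 ± 0.04, Cfi by -0.74 ± 0.08, C4b by -1.02 ± 0.12 and Cfb by -0.68 ± 0.13 (largest adjusted p = 8.55e-06). For each of the 7 genes the group means had 1 direction in 12 of 12 conditions. Serping1 and C2 had cortex and medulla arrays apart in all 12 conditions, which 7.24% of all genes did (4.44% with the medulla higher, 2.79% lower). Arrays were apart in 11 of 12 conditions for Cd59a, 9 for Cfi, 7 for C4b, 7 for Cd55 and 5 for Cfb. The share of all genes that reach these smaller counts, or that keep 1 direction in 12 of 12 conditions, was not determined. These counts therefore do not set the 7 genes apart from other genes. For Serping1, the lowest of all 36 medulla arrays (11.00) lay above the highest of all 35 cortex arrays (10.80), a separation seen in 2.89% of all genes.

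**Figure D2:**
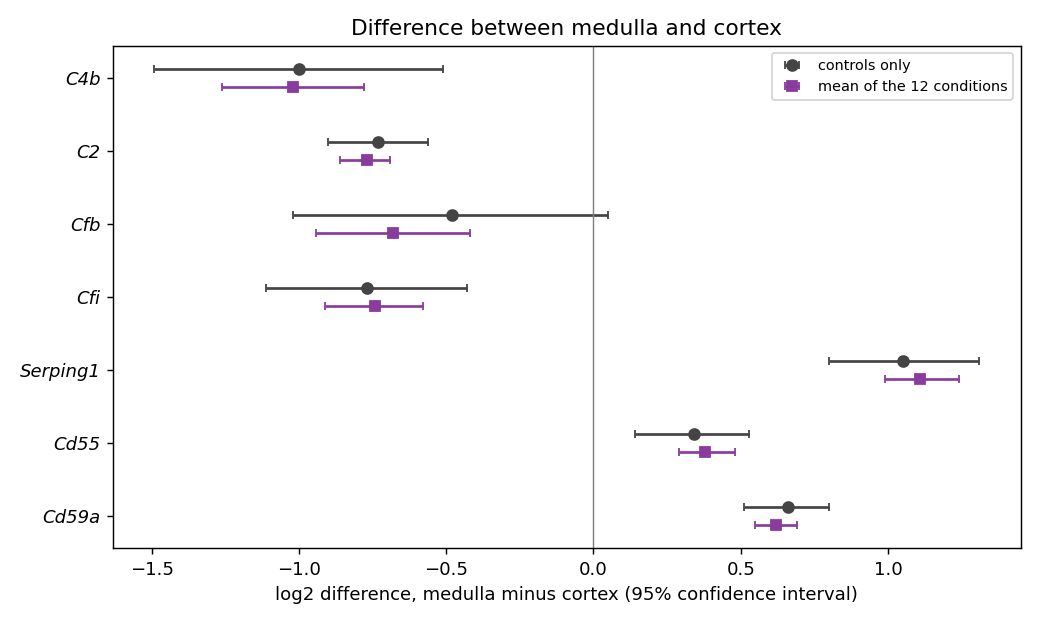
Difference in log2 intensity, medulla minus cortex, for each gene, with 95% confidence intervals from limma, in the controls (circles) and averaged over the 12 dose and time conditions (squares). Serping1, Cd59a and Cd55 lie to the right of 0, and the interval of Cfb crosses 0 in the controls only.

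Of 53 other complement genes listed from the pathway, 43 had a named probe and 17 were bright enough to test between tissues. In the controls 6 were higher and 4 lower in the medulla (10 of 17; background 37.4%, as above). The list's median was 0.03, against -0.01 over all genes. C8a, a chain of the terminal pore, was higher by 1.66 ± 0.20 (limma, adjusted p = 9.68e-10), and Cd59b, the second mouse copy of the pore inhibitor CD59, by 0.86 ± 0.09 (adjusted p = 1.08e-10). Cd59b, read from the brighter of its 2 probes, thus had the same direction as Cd59a. Whether this probe also reads Cd59a transcripts was not tested. The C1q genes C1qa, C1qb and C1qc, which encode the recognition part of C1 and are made mainly by macrophages, were higher by 0.23, 0.52 and 0.56, and Cd93, once described as a C1q receptor, by 0.65. Clu, or clusterin, a secreted chaperone that binds terminal complement proteins, was lower by a difference of -1.23 ± 0.13 (adjusted p = 1.98e-11), Cpn1, a subunit of the enzyme that inactivates the anaphylatoxins, read -0.59, C1rl -0.29 and the lectin Mbl1 -0.28. Mbl1 passed the floor in the cortex only, with a mean of 7.13 in the medulla. It entered the test through the tissue where it was higher, so its place among the 4 lower genes is no support. With the array left out put back, 4 of these 10 no longer passed: C1qa, C1qb and C1qc (-0.01, 0.20 and 0.20) and C1rl (-0.20, adjusted p = 0.0619). Genes of the receptors for the anaphylatoxins (C3ar1, C5ar1, C5ar2), of C5 (Hc), C6 and C9, and Cd46 and Vsig4, had probes that did not pass the floor.

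The next question was whether the absorbed dose changed these genes. None passed in either tissue. Averaged over the 3 times, 0 of 42 tests (7 genes, 3 doses, 2 tissues) passed in limma. The smallest adjusted p was 0.361, and 1 test had an unadjusted p under 0.05, where 7.36% of the tests of all genes did. Few genes passed anywhere in these comparisons: 0.103%, 0.218% and 0.0230% of cortex genes at 0.3, 3 and 10 Gy, and 0.0230%, 0.0691% and 0.0115% of medulla genes. The 3 dose comparisons of a tissue share their control arrays.

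The intervals of the differences show how large an effect the data leave room for. For C2 the 6 averaged differences lay between -0.05 and 0.06, and their 95% intervals between -0.23 and 0.21, at most 1.17-fold. For Cd59a the differences lay between -0.10 and 0.13 and the intervals within 1.2-fold. The difference of 0.13 ± 0.06 was that at 3 Gy in the cortex, the test with the unadjusted p of 0.046 (adjusted p = 0.361). Cd55, Serping1 and Cfi had intervals within 1.27-, 1.32- and 1.34-fold. Under the alternative settings the averaged Cd55 difference in the cortex fell as low as -0.41, -0.39 and -0.37 at the 3 doses. These lie below -0.23, the lowest bound of its intervals, and did not pass. With the array that stood apart put back, Cd55 at 1.5 months in the cortex read -1.12, -1.19 and -1.10. Cfi there read 0.83, 1.08 and 0.85, and none of these passed (limma, smallest adjusted p = 0.176). For C4b the differences lay between -0.14 and 0.00, but the intervals reached from -0.61 to 0.52, or 1.53-fold. Cfb was the least constrained: its differences ran from -0.36 at 3 Gy to 0.29 at 10 Gy in the cortex, and its intervals from -0.86 to 0.72, or 1.82-fold.

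**Figure D3:**
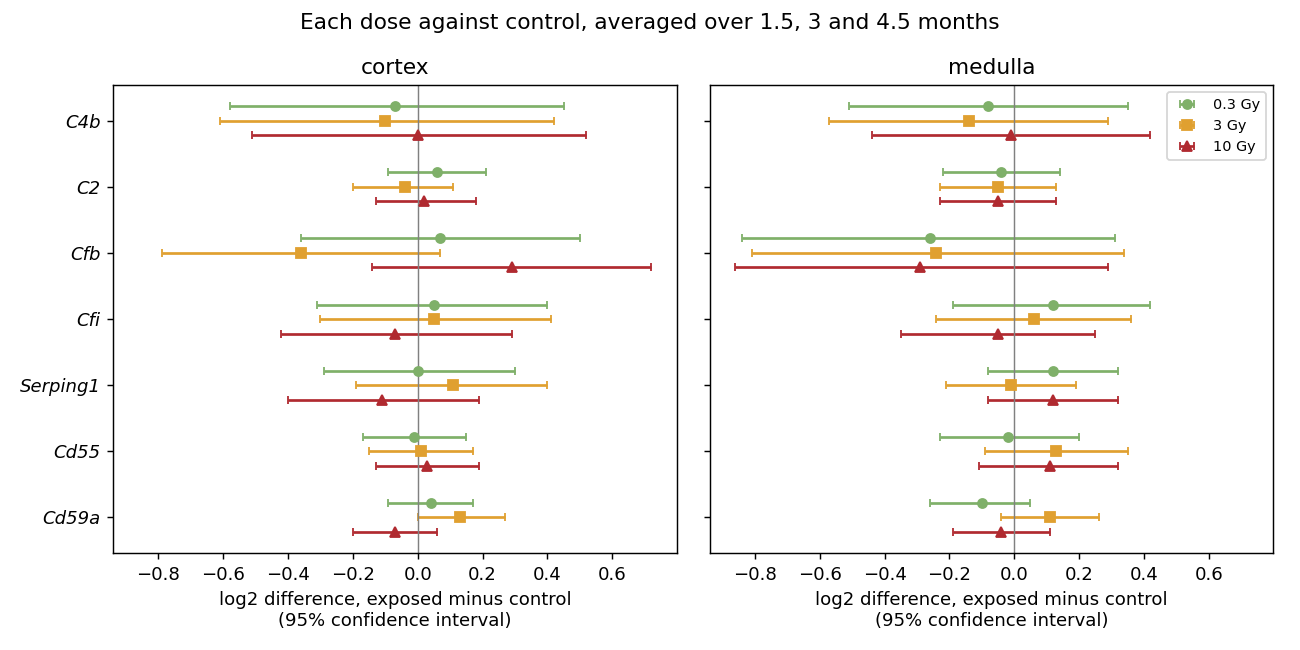
Difference in log2 intensity from control, averaged over 1.5, 3 and 4.5 months, for each gene and dose, with 95% confidence intervals from limma, in the cortex (left) and the medulla (right). The intervals of C2 and Cd59a stay within 0.27 of 0, whereas those of Cfb reach -0.86 and 0.72.

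At single times, 0 of 126 tests passed (smallest adjusted p = 0.364), and 1 had an unadjusted p under 0.05, where 6.23% of the tests of all genes did. Of all cortex genes, at 1.5, 3 and 4.5 months, 0%, 0.0230% and 0.184% passed at 0.3 Gy, 0.0115%, 0.0459% and 0.0344% at 3 Gy and 0% at each time at 10 Gy. Of all medulla genes, 0%, 0.0576% and 0.0691% passed at 0.3 Gy, 0%, 0.0461% and 0.0115% at 3 Gy, and 0%, 0% and 0.0115% at 10 Gy. The single test was Cfb at 3 Gy and 3 months in the cortex. The 3 control arrays there read 10.92, 11.73 and 11.70 and the 3 exposed arrays 9.95, 10.82 and 11.26, so the groups overlapped, and the difference was -0.77 ± 0.35 (limma, adjusted p = 0.364). In the medulla at 3 months, Cfb read 10.53, 11.50 and 11.44 in the controls. The exposed groups averaged 10.55 at 0.3 Gy, 10.27 at 3 Gy and 10.33 at 10 Gy, differences of -0.60, -0.88 and -0.83 that did not pass either (adjusted p = 0.782, 0.522 and 0.811). At 1.5 months Cfb had the other direction in most groups. In the cortex the 10 Gy arrays read 11.99, 11.69 and 11.47 and the 2 controls 11.04 and 10.87. The difference of 0.76 ± 0.39 did not pass (limma, adjusted p = 0.964), and the differences at 0.3 and 3 Gy were -0.04 and 0.27. In the medulla they were 0.14, 0.40 and 0.17 at 0.3, 3 and 10 Gy.

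C4b in the cortex was high in the controls of the last time. At 4.5 months the controls read 10.61, 11.10 and 10.17, the 0.3 Gy arrays 9.51, 9.46 and 10.48, the 3 Gy arrays 10.18, 9.73 and 9.63 and the 10 Gy arrays 10.66, 9.58 and 9.88. Each exposed group overlapped the controls, and the differences of -0.81, -0.78 and -0.59 (SE 0.42 each) did not pass (limma, adjusted p = 0.576, 0.484 and 0.999). At 1.5 months the 2 control arrays read 9.07 and 8.96, and the differences were 0.47, 0.59 and 0.44 (SE 0.47). The array left out of this group read 10.48, and with it put back the differences were -0.02, 0.10 and -0.05. The interaction of dose with time did not pass for C4b in the cortex (adjusted p = 0.91) or for any of the other 6 genes in either tissue (all adjusted p of 0.908 or more; 0.0230% of cortex genes and 0% of medulla genes passed). Nor did 10 against 0.3 Gy (smallest adjusted p = 0.786; 0.0459% of cortex and 0% of medulla genes passed) or the difference between the tissues in the effect of a dose (smallest adjusted p = 0.951; 0% of all genes passed at each dose).

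Time was compared next, between 4.5 and 1.5 months, averaged over control and the 3 doses. None of the 7 genes passed. For 6 of them, all but Cd59a, the cortex median was highest at 4.5 months, by steps that ranged from small (C2 11.73, 11.53 and 11.74) to that of C4b. How many of all genes had their highest cortex median at 4.5 months was not counted, so this is a description only. Age at sampling, time since exposure and any processing tied to a time cannot be told apart here. C4b in the cortex ranged from 8.86 to 10.02 at 1.5 months (median 9.40, n = 11), from 8.60 to 10.64 at 3 months (median 9.44, n = 12) and from 9.46 to 11.10 at 4.5 months (median 10.03, n = 12). The times overlapped, and the difference of 0.69 ± 0.21 had an adjusted p of 0.0624 in limma. In the medulla C4b ranged from 7.90 to 9.04 at 1.5 months (median 8.34) and from 8.36 to 9.91 at 4.5 months (median 8.80), a difference of 0.61 ± 0.18 (adjusted p = 0.105).

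Cfi differed by 0.42 ± 0.15 in the cortex (adjusted p = 0.107) and 0.39 ± 0.13 in the medulla (adjusted p = 0.144), and Serping1 by 0.32 ± 0.12 in the cortex (adjusted p = 0.139) and -0.06 ± 0.09 in the medulla. Over all genes 3.86% passed in the cortex and 1.28% in the medulla. At an unadjusted p under 0.05 there were 3 of the 7 genes in the cortex, where 20.0% of all genes reached it, and 2 of 7 in the medulla, where 12.9% did. With arrays weighted by their quality, C4b and Cfi passed in the cortex (0.73 and 0.55, adjusted p = 0.0165 and 0.0173) and C4b in the medulla (0.70, adjusted p = 0.0458); the estimation of the weights stopped short of convergence in the cortex. In the controls alone C4b differed by 1.61 ± 0.47 in the cortex, between 2 and 3 arrays, and by 0.87 ± 0.36 in the medulla. Neither passed (limma, adjusted p = 0.249 and 0.315), where 0.0115% and 0.0346% of all genes did. Once the array that stood apart was put back, C4b in the cortex read 0.57 over control and the doses and 1.12 in the controls alone. Cfi and Serping1 in the cortex then read 0.61 and 0.21 over control and the doses, and none of these passed. The difference between the tissues in the effect of time was -0.38 ± 0.15 for Serping1 and did not pass (adjusted p = 0.571; 0.0332% of all genes passed).

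**Figure D4:**
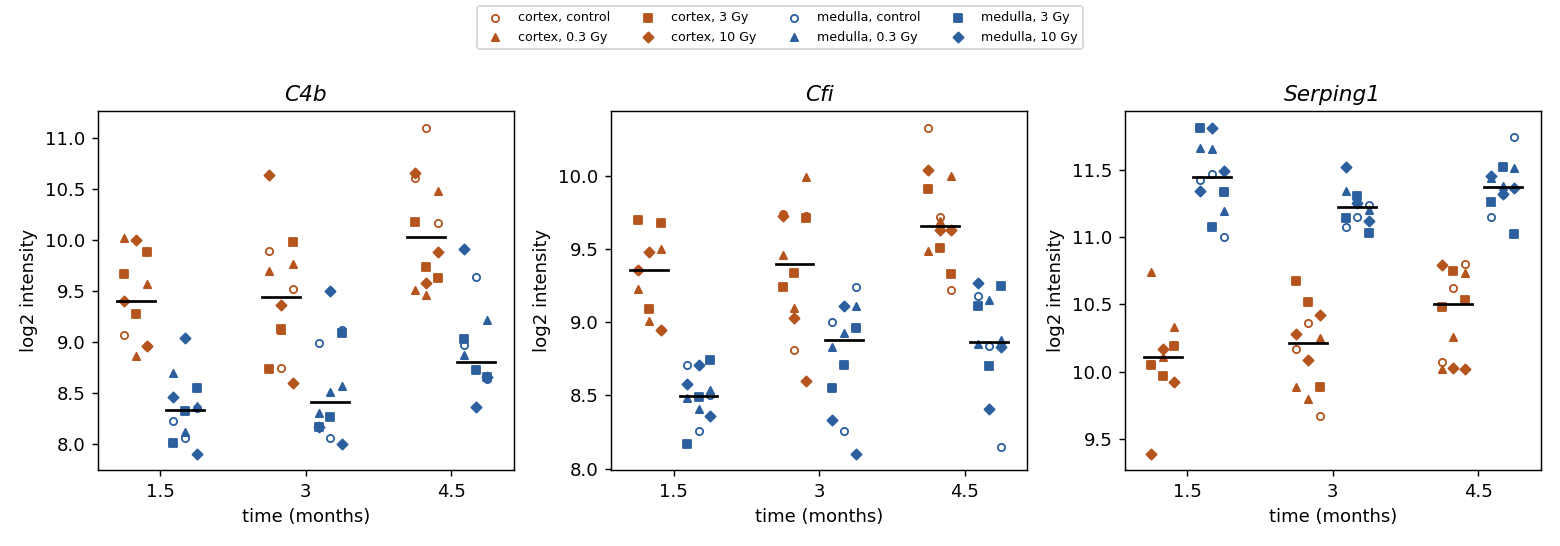
Log2 intensity of C4b, Cfi and Serping1 on each array at 1.5, 3 and 4.5 months, in the cortex (left of each pair) and the medulla (right), with dose as the marker and controls as open circles; bars are medians over all arrays of a tissue and time. The median of C4b in the cortex was 9.40, 9.44 and 10.03 at the 3 times.

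Among the other complement genes, those of C1q differed with time. In the cortex 3 of 17 rose and 1 fell between 1.5 and 4.5 months (1.56% of all genes rose and 2.30% fell), with a list median of 0.07 against -0.01 over all genes. C1qc rose by 0.51 ± 0.11 (limma, adjusted p = 0.0135), C1qb by 0.43 ± 0.12 (adjusted p = 0.042) and C1qa by 0.20 ± 0.05 (adjusted p = 0.0371), and C8g, a chain of the terminal complex, fell by 0.21 (SE 0.05; adjusted p = 0.031). In the medulla 2 of 16 rose (0.680% of all genes rose and 0.599% fell): C1qa by 0.28 ± 0.06 (adjusted p = 0.0172) and C1qc by 0.50 ± 0.13 (adjusted p = 0.039). Several of these calls depend on single arrays. With each of the 23 cortex arrays left out in turn C1qc passed in 22, C8g in 14, C1qa in 10 and C1qb in 5, and with the array that stood apart put back none of the 4 passed. In the medulla C1qa passed in 24 of 24 and C1qc in 10. Without the cortex controls' replicate 1 at 1.5 months, which leaves that group 1 array, all 4 were lost (adjusted p = 0.11 for C1qa, 0.109 for C1qb, 0.0517 for C1qc and 0.132 for C8g).

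Macrophage markers rose at the same time in the cortex. Over all genes 1.56% rose there and 0.680% rose in the medulla, with a median of -0.01 in each tissue. How many of all genes lay above 0 was not counted. Of 9 listed markers with a probe, 7 were tested and 4 rose: Adgre1, which encodes F4/80, by 0.51 ± 0.07, the protease Ctss by 0.66 ± 0.10, and the lysozymes Lyz2 and Lyz1 by 1.02 ± 0.19 and 0.98 ± 0.18. All 7 lay above 0, with a median of 0.51. The 4 passed with any single array left out, but none did with the array that stood apart put back (Adgre1 0.21, Ctss 0.30, Lyz2 0.54 and Lyz1 0.66; adjusted p = 0.79, 0.733, 0.67 and 0.5). Their summed intensity in the cortex ranged from 2580 to 4123 at 1.5 months, from 2276 to 3760 at 3 months and from 3133 to 10751 at 4.5 months, with medians of 2945, 3006 and 4874. In the medulla 1 of 7 rose, Lyz1, in 14 of 24 fits with an array left out, and the list median was 0.51. Of 22 interferon-inducible genes tested, 4 rose in the cortex (Psmb9, Irgm1, Irf1 and Ifit2), all 22 lay above 0 and the median was 0.35, whereas 0 passed in limma in the medulla (median 0.07). These 4 calls were fragile: with each of the 23 cortex arrays left out in turn Irgm1 passed in 10, Psmb9 in 7, Irf1 in 7 and Ifit2 in 5. None passed with the array that stood apart put back (adjusted p = 0.474, 0.815, 0.644 and 0.258) or with no intensity filter (adjusted p = 0.057, 0.0586, 0.0661 and 0.0762). The part of these markers in the differences of C4b, Cfi and C1q with time was not tested. Relations of C4b and Cfi with them within groups are given below. For dose, averaged over time, none of the 17 cortex or 16 medulla genes of the complement list passed in limma. The smallest adjusted p, 0.235, was that of C8a at 0.3 Gy in the cortex (-0.64 ± 0.19, unadjusted p = 0.00199).

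The 7 genes differed in how much arrays of 1 group varied. The SD of arrays around their group mean was 0.15 log2 units in the median gene of either tissue. Cfb in the medulla had 0.66, a value exceeded by 14 of 8682 genes, and 0.47 in the cortex. C4b had 0.56 in the cortex, the 99.1st percentile of all genes, and 0.49 in the medulla. Cfi followed with 0.38 and 0.34 and Serping1 with 0.32 and 0.22, in cortex and medulla. By contrast C2, the neighbour of Cfb, had 0.15 and 0.19, and Cd59a 0.13 and 0.16, near the median gene, and Cd55 had 0.17 and 0.24. An example is the control medulla at 1.5 months, where Cfb read 9.22, 10.83 and 10.77.

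Some of this variation was shared between genes. Each array's deviation from its group mean was correlated between the genes, and with the mean deviation of the macrophage markers, the proximal tubule markers and the interferon-inducible genes, 84 relations in all. P-values came from two-sided permutations of the arrays within groups and were adjusted over the 84. C4b and Cfi varied together, with Pearson's r = 0.80 and Spearman's rho = 0.84 over 35 cortex arrays (permutation p = 2e-05 and 1e-05, the latter the smallest the permutations can give; adjusted p = 0.00168 and 0.00084). The 2 deviations went together in 12 of 12 cortex groups, and r was 0.74 without the 2 arrays farthest from the median. In the medulla, over 36 arrays, r was 0.77 and rho 0.73 (permutation p = 0.00027 and 0.00028; adjusted p = 0.0106 and 0.0118), with the same direction in 11 of 12 groups and r = 0.70 without the 2 farthest arrays. Both genes of a pair were read from the same arrays.

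C2 followed C4b less closely, with r = 0.65 and rho = 0.57 in the cortex (adjusted p = 0.0361 and 0.0564) and r = 0.66 and rho = 0.53 in the medulla (adjusted p = 0.0679 and 0.0744), so its rank correlation did not pass in either tissue. Without the 2 farthest arrays r was 0.53 in the cortex and 0.46 in the medulla. The deviations of C2 and C4b went together in 8 of 12 cortex groups and 9 of 12 medulla groups. The neighbours Cfb and C2 varied inversely in the cortex, by r only (r = -0.53, rho = -0.52; adjusted p = 0.0405 and 0.0564), in 11 of 12 groups, and r was 0.11 in the medulla (rho 0.11; adjusted p = 0.649 and 0.713). Cfb and C4b had r = -0.33 in the cortex and 0.00 in the medulla, and neither passed (adjusted p = 0.314 and 0.999). Serping1 and Cd59a varied together in the medulla (r = 0.66, rho = 0.62; adjusted p = 0.0349 and 0.0479; r = 0.58 without the 2 farthest arrays), and in the cortex r was 0.16 (rho 0.11; adjusted p = 0.625 and 0.713). C4b and Cd55 varied inversely in the medulla, by r only (r = -0.51, rho = -0.57; adjusted p = 0.0498 and 0.0506; r = -0.54 without the 2 farthest arrays), in 12 of 12 groups. Differences in r between the tissues were not tested.

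**Figure D5:**
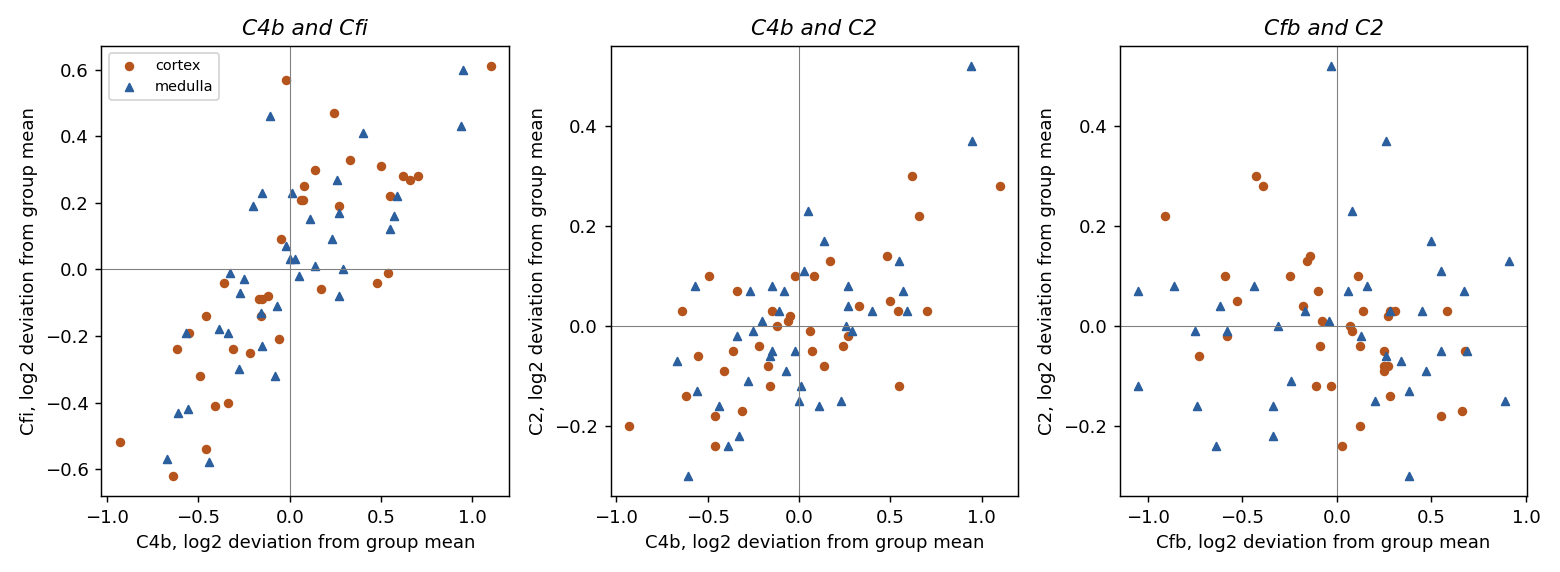
Deviation of each array from the mean of its group, in log2 units, for the pairs C4b and Cfi, C4b and C2, and Cfb and C2, in the cortex (circles, 35 arrays) and the medulla (triangles, 36 arrays). The points of C4b and Cfi follow a rising line in both tissues (r = 0.80 and 0.77), whereas those of Cfb and C2 fall in the cortex (r = -0.53) and show no slope in the medulla (r = 0.11).

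The interferon-inducible genes varied with C2 and C4b in the cortex. C2 had r = 0.75 and rho = 0.69 with their mean (adjusted p = 0.0322 and 0.0212; r = 0.62 without the 2 farthest arrays) and C4b had r = 0.62 and rho = 0.59 (adjusted p = 0.0256 and 0.0312; r = 0.57). In the medulla these were 0.34 and 0.36 and did not pass (rho 0.15 and 0.24; adjusted p = 0.504 and 0.269 for r, 0.641 and 0.432 for rho). Instead C2 there varied with the proximal tubule markers (r = 0.68, rho = 0.65; adjusted p = 0.0106 and 0.0212; r = 0.65), a relation that was -0.16 in the cortex (rho 0.01; adjusted p = 0.676 and 0.958). With the macrophage markers, Cd59a in the cortex passed by r only (r = 0.59, rho = 0.53, permutation, adjusted p = 0.0322 and 0.0564). Its r there was 0.52 without the 2 farthest arrays, and in the medulla r was 0.17 (rho 0.13, adjusted p = 0.625 and 0.713). Serping1 had r = 0.50 in the cortex and 0.48 in the medulla, which did not pass (adjusted p = 0.0912 and 0.0974). Cfb had r = -0.43 in the cortex and 0.11 in the medulla and did not pass either (adjusted p = 0.0903 and 0.676). No relation of C4b, Cfi or C2 with the macrophage markers passed in either tissue (r from -0.34 to 0.19, smallest adjusted p = 0.144). With the interferon-inducible genes, Cfi had r = 0.45 in the cortex and 0.13 in the medulla, and Serping1 had 0.45 and 0.49. Cfb had -0.40 in the cortex and 0.10 in the medulla, and none of these passed (permutation, smallest adjusted p = 0.0749, by rho for Cfi in the cortex).

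Over the 24 group means, with each tissue's mean removed, the genes most like each member in pattern were listed as a description, with no test. C4b was closest to Fgl2 (r = 0.89), H2-Q5 and Rgs10 (0.88 each), and Cfb to Prps2 and Agpat3 (0.94 each) and Cdc123 (0.93). For Cfi they were Nck1 (0.73), C4b itself (0.71) and Abca8a (0.71), so C4b stood among the 3 genes nearest to Cfi by group means as well. Serping1 was closest to Ddx17 and Timp2 (0.85 each), Cd59a to Sumo3 (0.78), C2 to Pigz (0.79) and Cd55 to Clec2e (0.63). These group means share arrays and normalization, and 9024 genes were searched.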

How the data were processed

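Total RNA was labelled with biotin and hybridized to Illumina arrays, per the labels' protocols. The deposited table holds 1 intensity per probe on a linear scale for 72 arrays. The authors' values are quantile-normalized, as the deposited intensities show: sorted columns differ by at most 1.26. The software and any background correction are not given in the sources used here. A second table in 144 columns (signal and detection p-values per the file headers) could not be tied to samples and was not used.

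Intensities were log2-transformed. Of 25697 probes 23978 had 1 symbol, 0 several and 1719 none. A probe was kept where all arrays of at least 1 group reached 150, and the brightest probe stood for a gene, giving 8710 cortex, 8682 medulla and 9024 joint genes. Groups come from the labels' tissue, dose and time. A mean per group was estimated in limma 3.58.1 (lmFit, eBayes with trend) in R 4.3.3, in 38 comparisons, two-sided, adjusted by Benjamini-Hochberg over all genes, threshold 0.05. The ± values are SE, unless given as SD. The procedure was tested on simulated data. Permutations (100000) were run in Python 3.11.15 with numpy 2.4.6, and figures drawn with matplotlib 3.10.9. The members and gene lists were chosen with earlier results of these data known. The text names the members, the complement genes of the list that passed, and the 3 genes most like a member (fewer where the text is shorter). Macrophage, interferon-inducible and segment marker genes named beside them are those that passed, or label checks. The alternatives were no floor, a floor of 200, the mean of probes, array weights, cyclic loess, normexp with an offset of 50, no trend, only the compared groups, the replicate block, the array put back and each array left out.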

Additional observations from a re-analysis of the deposited data

How the results depend on the processing

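The counts of the 7 complement genes that passed changed under 2 alternatives, array weights and the array put back. With array weights there were 2 in place of 0 for 4.5 against 1.5 months in the cortex, and 1 in place of 0 in the medulla; the cause was not tested, and the cortex and joint weights did not converge. With the array that stood apart put back, 5 of the 7 passed between control tissues in place of 6, and Cd55 read -0.06 (adjusted p = 0.867), C1qa -0.01 (adjusted p = 0.967) and, for control cortex between 4.5 and 1.5 months, Adgre1 -0.30 (adjusted p = 0.724), each of which had passed with the opposite sign without it. With each array left out in turn, 6 to 6 genes passed between control tissues, 7 to 7 over the 12 conditions, and 0 to 0 in all comparisons of dose, time and their differences between tissues. The replicate number as a block left these counts at 6, 7 and 0. The labels do not say whether cortex and medulla arrays with the same number come from 1 animal. The main fits treated them as separate samples. Same-numbered arrays had a median r of 0.13 in their deviations from the group means over 35 pairs (-0.43 to 0.65, consensus correlation 0.142). For other numbers the median was -0.11, and 23 of 35 cortex arrays were closest to their own number. Same-numbered arrays were thus more alike in the median, and whether they share an animal was not tested. Of the values for single complement genes among the 7, 4582 kept their direction and side of the threshold, 286 that had not passed changed sign, 3 came to pass and 1 reversed. Of those for the other named genes 2011 kept both, 163 no longer passed and 2 reversed. Signal near background limits Cd55, and a wide spread within groups of 2 to 3 arrays limits Cfb and C4b.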

Other observations

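Cfb and C2 lie next to each other on chromosome 17, yet their probes stood far apart in spread: around the group means Cfb had an SD of 0.66 in the medulla and C2 0.19. Cfi and Serping1 are both soluble regulators, and their tissue differences had opposite signs (-0.74 ± 0.08 and 1.11 ± 0.06 over the 12 conditions). The 10 Gy group at 4.5 months in the medulla held the array with the highest medulla signal of both C4b (9.91, against 8.36 and 8.65 on the other arrays of its group) and C2 (11.48, against 10.67 and 10.74), and Cfi read 9.27 on the same array, against 8.41 and 8.83. This array was singled out after its values were seen.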
